A study of Drosophila melanogaster with 6 samples.

Results

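Alpha/beta-type Kenyon cells were selected from single-cell RNA sequencing of fly brains by what their own counts held, in all 6 libraries. Cells needed 200 detected genes or more, and no more than 10% of their unique molecular identifiers (UMIs, the tags that count single transcripts) from mitochondrially encoded protein genes. A kept cell was selected when it had UMIs of at least 2 of the 5 markers *crb*, *SP1173*, *Lgr1*, *sals* and *lbm*, a UMI of *ey* or *dac*, and no UMI of *CG13055*, *GstD11* and *CG34402*. This gave 222 cells among 25189 kept cells (0.881%) and 67362 barcodes. Because these values chose the cells, the 10 selection genes and the 13 mitochondrial genes are described and were left out of every test.

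Kenyon cells are the intrinsic neurons of the mushroom body, the paired structure of the fly brain that forms and stores odour memories. They receive odour input from projection neurons in the calyx, send parallel axons into the lobes, and release acetylcholine. Alpha/beta neurons are the last class to be born, and each axon splits into a vertical alpha and a medial beta branch, whereas gamma neurons fill the gamma lobe only. Dopamine that acts through receptors coupled to cyclic AMP changes their output synapses during learning. *Appl*, the fly relative of the gene for the human amyloid precursor protein, encodes a neuronal membrane protein.

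Brains came from flies aged for 10 days. The *Appl*- flies (labelled Appl[d] w[*]) carry the *Appl* d allele, a deletion of the central part of the gene, and the control flies are w1118. There were 3 libraries of each genotype, and each library pooled the brains of 20 male and 20 female flies, so the spread between libraries is a spread between pools. The control is another stock, and the labels do not say that the 2 genotypes share a genetic background, so the deletion and other differences between the stocks cannot be told apart.

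The 3 *Appl*- libraries gave 39, 47 and 31 alpha/beta cells (replicates 1, 2 and 3), and the 3 control libraries gave 40, 27 and 38. The median alpha/beta cell had 3328, 3339 and 3082 UMIs in *Appl*- libraries, against 3462, 3622 and 2796 in control libraries. After summing over the cells, a library held 96883 to 170335 UMIs of genes in *Appl*- and 97531 to 180073 in control. Each cell was thus sampled thinly, and differences between genotypes were tested on these sums. In such sums, fewer transcripts per cell and fewer cells that express a gene cannot be told apart. Whole libraries held 11282730 to 56384733 UMIs. Between 2 and 16 kept barcodes were shared by a pair of libraries, and no selected cell shared its barcode with a selected cell of another library.

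Control replicate 1 stood apart from the other libraries. It gave the deepest library, and its alpha/beta cells had the highest median mitochondrial share, 6.98%, against 3.21% to 5.21% in the other libraries. Its summed Kenyon cell genes outside the rule were lowest, at 13756 CPM (UMIs scaled to 1000000 gene UMIs per library and cell set), against 19151 to 27053 CPM elsewhere. It also held both selected cells of highest depth, with 31556 and 12320 UMIs, while the next had 10874 UMIs in *Appl*- replicate 2. Those 2 cells carried a large part of its counts of some genes, such as 532 of the 585 UMIs of the odorant-binding protein gene *Obp44a* over all members and 773 of the 786 UMIs of the neuropeptide gene *Dh31*. Results were therefore also obtained without this library and without the 3 cells above 10000 UMIs, a limit chosen after seeing the data.

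Among the selection markers, *crb*, a polarity gene, was detected in 204 of the 222 cells (91.9%). *SP1173* was found in 138 cells (62.2%), *sals* in 101 (45.5%), *lbm* in 66 (29.7%) and *Lgr1*, a glycoprotein hormone receptor, in 63 (28.4%). In the 24374 kept cells outside both Kenyon cell sets these shares were 5.14%, 1.28%, 1.15%, 1.09% and 2.06% in the same order. In the gamma-type Kenyon cells defined below, which were limited to fewer than 2 of these markers, they were 3.20%, 0.506%, 21.1%, 1.69% and 0%. The level of *sals* was higher in alpha/beta than in gamma-type cells in 5 of 6 libraries. Free RNA can give a few UMIs to cells that do not make a transcript, and its part in these shares was not tested. The most common combinations were *crb* with *SP1173* (42 cells), *crb*, *SP1173* and *sals* (30 cells) and *crb* with *sals* (23 cells). Of the members, 116 had 2 of the 5 markers, 87 had 3, 16 had 4 and 3 had all 5. Just outside the rule were 282 cells with 1 marker, 225 that had a UMI of an excluding marker, 65 without *ey* and *dac*, and 136 above the mitochondrial limit. At that limit, 16 members had 9% to 10% mitochondrial UMIs, and 12 cells excluded by it had 10% to 11%.

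The label was compared with genes that the rule did not use. Gamma-type Kenyon cells served for comparison. They had UMIs of at least 2 of the 3 excluding markers, fewer than 2 of the 5 markers, and a UMI of *ey* or *dac* (593 cells, at a median of 4951 to 7736 UMIs per library). *Fas2*, an adhesion molecule known from the alpha/beta lobes, lay at 816 to 1270 CPM in alpha/beta cells (median of 6 libraries 998), against 348 to 684 CPM in gamma-type cells. The guanine exchange factor gene *trio*, known from gamma and alpha'/beta' neurons, was at 114 to 224 CPM, against 508 to 650 CPM. The gamma regulators *ab* and *mamo* were at 18.4 to 144 and 45.9 to 1194 CPM in alpha/beta cells, against 805 to 1059 and 8221 to 10408 CPM in gamma-type cells. None of these ranges overlapped between the 2 cell sets. These lobe genes follow the alpha/beta label, although 61 of the 222 cells (27.5%) had a UMI of *mamo*, which 99.3% of gamma-type cells and 71.1% of the other cells had.

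**Figure D1:**
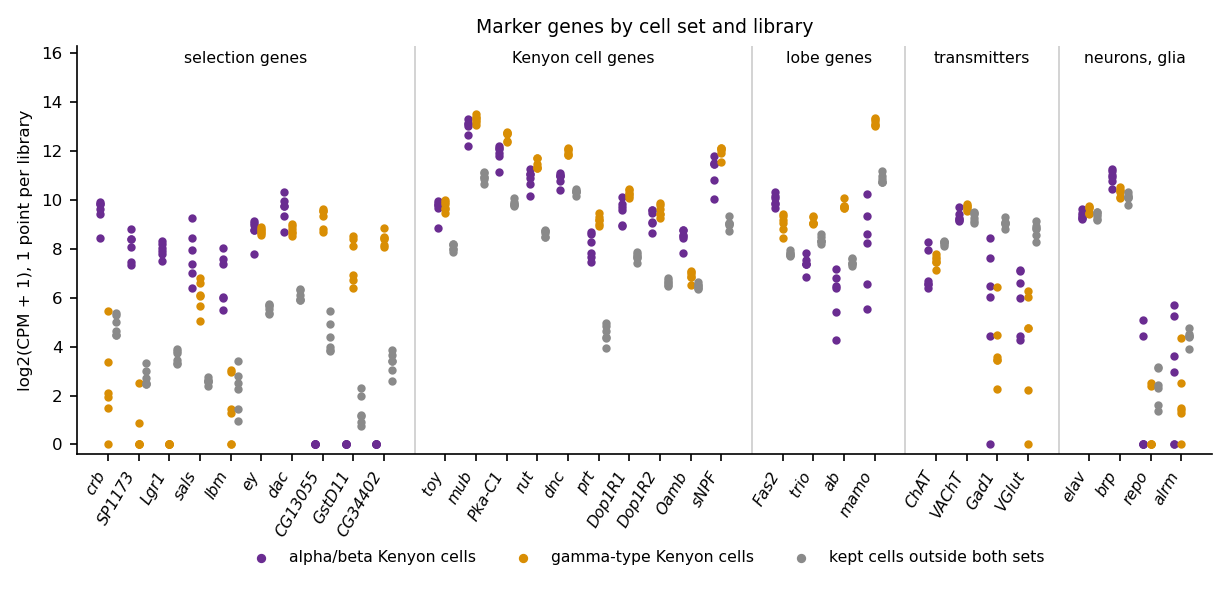
Level of selection and marker genes as log2(CPM + 1), with 1 point per library (6 libraries of both genotypes) for alpha/beta Kenyon cells, gamma-type Kenyon cells and the kept cells outside both sets. *mamo* lay at 45.9 to 1194 CPM in alpha/beta cells and at 8221 to 10408 CPM in gamma-type cells, and the genes of the first panel were used to choose the cells.

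Summed, the Kenyon cell genes outside the rule were at 13756 to 27053 CPM in alpha/beta cells and 29106 to 36715 CPM in gamma-type cells. In cells outside both they were at 5718 to 6677 CPM. The eyeless paralog *toy* was at 461 to 985 CPM in alpha/beta cells, against 697 to 1017 CPM in gamma-type cells and 229 to 294 CPM in cells outside both. Of 28 genes of cyclic AMP signalling, 11 were lower and 6 higher in alpha/beta than in gamma-type cells in 6 of 6 libraries, and 11 were neither. The last include *Pka-C2*, with no UMI in any set, and the lower ones *Ac76E*, at 0 to 10.3 CPM in alpha/beta cells. The matching share over all genes was not obtained, so these counts do not set the list apart from other genes. Among the lower ones, the adenylate cyclase gene *rut* was at 1127 to 2453 CPM, against 2513 to 3375 CPM, the phosphodiesterase gene *dnc* at 1338 to 2163 CPM, against 3619 to 4424 CPM, and the kinase gene *Pka-C1* at 2260 to 4650 CPM, against 5313 to 6985 CPM. The octopamine receptor gene *Oamb* went the other way, at 228 to 432 CPM, against 90.2 to 135 CPM. Not every gene was high in both classes. *dnc* was at 1123 to 1400 CPM in cells outside both, which overlapped its alpha/beta range. *Oamb* was at 81.6 to 96.9 CPM in all kept cells outside the alpha/beta set, which overlapped its gamma-type range. The neuropeptide gene *sNPF* was at 1038 to 3520 CPM, against 2960 to 4462 CPM. The acetylcholine transporter gene *VAChT* was at 557 to 841 CPM in alpha/beta cells, against 748 to 894 CPM in gamma-type cells. In all kept cells outside the alpha/beta set it was at 542 to 725 CPM. The other cholinergic genes were *ChAT* (82.7 to 311, 140 to 217 and 275 to 309 CPM in the same order) and *ChT* (88.9 to 211, 209 to 324 and 92.5 to 140 CPM). The glial gene *repo* was at 0 to 33.3 CPM with a median of 0 in alpha/beta cells. All glia markers summed to 58.7 to 655 CPM there, against 291 to 630 CPM in cells outside both classes.

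Beyond these lists, 257 genes were higher and 334 lower in alpha/beta than in gamma-type cells in 6 of 6 libraries, among genes at 50 CPM or more in the higher set. How many genes reached that level in all was not counted, so no share is given. As the rule separates the 2 sets by measured values, this is a description without a test. Folds are medians over libraries of log2(CPM + 20). The largest were *CG43759* (4.43), *DIP-kappa*, an immunoglobulin protein that binds Dpr proteins (3.84), *beat-VII*, of the Beat guidance family (3.25), *Rgk2*, a small GTPase of the family that restrains calcium channels (3.09), and *pros*, a homeodomain factor (2.98). The T-type calcium channel gene *Ca-alpha1T* (2.92), the octopamine receptor gene *Octbeta3R* (2.78), *CG32547* (2.68), the phosphodiesterase gene *Pde6* (2.61) and *CG33090* (2.56) followed. Lowest were *mamo* (-4.69), *Pka-C3*, a kinase related to Pka-C1 (-4.64), *Imp*, an RNA-binding protein of temporal identity (-3.29), *zfh2*, a zinc finger homeodomain factor (-3.28), and the glypican gene *dlp* (-3.21). Further low genes were *ab* (-3.16), the glutamate receptor gene *mGluR* (-2.82), *CG33543* (-2.48), *tbc* (-2.47) and the relaxin receptor gene *Lgr3* (-2.39).

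The cells were also compared with each other within a library, by the variance beyond Poisson counting among 2190 genes at 0.2 UMIs per cell or more in a library. The genes with the largest excess were present in few cells. *twit* came from 1 cell, *Scp2* from 11 cells, *luna* from 21, *beat-IIa* from 18, *beat-Ic* from 15, *CG9650* from 29, *scro* from 15, *ct* from 46, *hig* from 44 and *pdm3* from 13 of the 222. In 1 cell of *Appl*- replicate 1 with 2877 UMIs, 196 were of *Pdh*, a retinol dehydrogenase gene of the eye. At least 2 UMIs of genes for other transmitters (GABA, glutamate and monoamines) were seen in 9, 6 and 4 selected cells of *Appl*- libraries, against 14, 2 and 3 of control libraries. Scrublet, a doublet caller, marked 0 to 1 cells per library and none of the selected cells, a yield too small for the caller to be relied on. No doublets were removed, so doublets may be among the cells.

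The share of alpha/beta cells among kept cells was 1.07%, 0.727% and 0.983% in *Appl*- libraries, against 0.900%, 0.798% and 0.928% in control libraries. The exact (Clopper-Pearson) 95% intervals of single libraries ran from 0.527% to 1.46% at the widest and cover counting error only. The genotypes overlapped, with 0.926 ± 0.177% in *Appl*- and 0.875 ± 0.0683% in control (mean ± SD, n = 3 libraries each, two-sided exact permutation test p = 0.7, where 3 against 3 allows no p below 0.1). With every cell thinned to 1000 UMIs before selection, which left out 3 of the 222 cells as shallower, the shares were 0.473 ± 0.157% and 0.459 ± 0.226% (exact permutation p = 0.9). The median depth of an alpha/beta cell was 3250 ± 145 UMIs in *Appl*- and 3293 ± 438 in control (exact permutation p = 0.9). The male transcript *lncRNA:roX1* was seen in 66.8 ± 13.2% of *Appl*- and 58.0 ± 11.6% of control alpha/beta cells (exact permutation p = 0.5). With same-numbered libraries as pairs, an analysis added after seeing the data, *lncRNA:roX1* was seen in more cells of the *Appl*- library in 3 of 3 pairs, by 11.9, 7.80 and 6.88 percentage points (two-sided exact paired permutation p = 0.25, the smallest that 3 pairs allow). The paired exact p was 0.75 for the share of alpha/beta cells, 1 for the thinned share and 1 for the median depth. The *lncRNA:roX1* differences had the same sign in 3 of 3 pairs, but 3 pairs cannot reach 0.05 and each share rested on 27 to 47 cells. Neither counting error in these shares nor the part of *lncRNA:roX1* in the genotype differences was tested.

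Markers of other cell types were summed in the alpha/beta cells of each library. Fat body markers were at 61.9 to 116 CPM in *Appl*-, against 205 to 4798 CPM in control, where the highest value, of control replicate 1, came with the yolk protein genes. Optic lobe neuron markers were at 145 to 279 CPM, against 377 to 444 CPM. A large part of that sum was *hth*, at 129, 211 and 134 CPM in *Appl*- and 261, 308 and 340 CPM in control. *hth* was also at 296 to 438 CPM in gamma-type cells, and whether the sum came from optic lobe cells was not tested. The fat body and optic lobe lists did not overlap between genotypes in alpha/beta cells. In cells outside both Kenyon cell sets, fat body markers were apart as well, at 95.6 to 147 CPM in *Appl*-, against 440 to 5479 CPM in control. Photoreceptor markers (163 to 475, against 575 to 2667 CPM) and hemocyte markers (13.7 to 33.7, against 77.7 to 235 CPM) were apart there too. Optic lobe neuron markers overlapped there, at 1248 to 1347 and 1182 to 1255 CPM. In gamma-type cells the fat body and optic lobe lists overlapped between genotypes. Hemocyte markers were apart there, at 0 to 5.01 CPM in *Appl*-, against 9.07 to 104 CPM in control. The values that follow are those of alpha/beta cells. Glia markers were at 58.7 to 224 CPM in *Appl*- and 193 to 655 CPM in control, photoreceptor markers at 20.6 to 136 and 110 to 466 CPM, hemocyte markers at 5.87 to 20.6 and 10.3 to 106 CPM, and GABAergic markers at 92.9 to 163 and 61.5 to 439 CPM. Glutamatergic markers were at 20.6 to 141 CPM in *Appl*- and 18.4 to 133 CPM in control. Monoaminergic markers were at 13.6 to 23.5 CPM and 9.19 to 44.4 CPM. Their part in the genotype differences given next was not tested, and the values without the deepest cells are given beside them.

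Between genotypes, 22 of 1871 genes changed in alpha/beta cells. Calls required an edgeR quasi-likelihood p under 0.05 after Benjamini-Hochberg adjustment over all genes tested, and a log2 fold change of at least 0.322 in size. Of all genes tested, 0.641% were called higher in *Appl*- (12 genes) and 0.534% lower (10 genes), with a median log2 fold change of -0.01, and 152 had an unadjusted p under 0.05. In each of the 22 genes the libraries did not overlap between genotypes, as in 12.9% of all genes tested. The same-numbered libraries deviated together, at correlations of 0.168 to 0.387, against -0.264 to 0.133 for libraries of different numbers. The labels do not say what a number shares, so the pairing is an assumption. In the paired fit with a replicate block, which leaves few residual degrees of freedom, 33 genes were higher and 39 lower. These 72 included all 22. Without control replicate 1, 14 genes were higher and 17 lower, and without *Appl*- replicate 2, 5 were higher and 5 lower. With no requirement of *ey* or *dac* in the rule, 12 of the 22 lost their calls (*CG14082*, *CG31324*, *CG31997*, *CG42540*, *Ca-alpha1D*, *Cda5*, *GstD1*, *Rh7*, *Shawl*, *dpr6*, *fend* and *gce*). Without the 3 cells above 10000 UMIs, 12 genes were higher and 13 lower. These included 21 of the 22, and *Rh7* then had too few UMIs to be tested.

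*Appl* itself was at 177, 229 and 145 CPM in *Appl*- alpha/beta cells, against 3454, 5045 and 4538 CPM in control cells. Its UMIs were seen in 51 of 117 *Appl*- members (43.6%) and in 105 of 105 control members. In the *Appl*- libraries, kept cells outside both Kenyon cell sets had an *Appl* UMI in 41.8% to 46.6% of cells, at 204 to 251 CPM, at a median depth of kept cells of 2312 to 2891 UMIs. The log2 fold change was -4.53 ± 0.26 (SE, edgeR adjusted p = 8.84e-09). The deletion leaves the ends of the gene, and the sources used here do not say where the counted 3' reads lie, so the remaining UMIs do not measure intact *Appl* transcripts. The level was low in all 3 *Appl*- libraries, as labelled.

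Receptor and channel genes were among those called. *5-HT1B*, a serotonin receptor coupled to inhibitory G proteins, had 136, 93.9 and 92.9 CPM in *Appl*- and no UMI in any of the 3 control libraries. With 45 UMIs against a floor of 3 UMIs over the control group, it was at least 14.0-fold higher (edgeR adjusted p = 0.00133). It was detected in 33 of 117 *Appl*- members. *Dh44-R1*, a receptor of the diuretic hormone 44 peptide, was at 136, 182 and 145 CPM, against 27.8, 61.5 and 45.9 CPM (log2 fold change 1.84 ± 0.41, edgeR adjusted p = 0.0341). *Ca-alpha1D*, the L-type calcium channel, was at 686, 534 and 743 CPM, against 261, 318 and 349 CPM (1.07 ± 0.24, edgeR adjusted p = 0.0323). The Shaw-like potassium channel gene *Shawl* fell, with 217, 217 and 217 CPM in *Appl*-, against 350, 800 and 753 CPM in control (-1.52 ± 0.30, edgeR adjusted p = 0.0108). The calls of *Ca-alpha1D*, *Dh44-R1* and *Shawl* were each lost without 1 library in 5 of 6 cases, up to adjusted p = 0.245, 0.376 and 0.14, whereas *5-HT1B* kept its call in every such fit that tested it.

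Cell-surface and synaptic genes moved in both directions. *fipi*, an immunoglobulin-domain gene known from courtship song, had 170, 135 and 155 CPM in *Appl*-, against 5.55, 10.3 and 0 CPM in control. With 63 against 2 UMIs, the ratio was 29.4 (95% counting interval 7.80 to 248), and it rose at edgeR adjusted p = 0.000515. *metro*, a membrane-associated guanylate kinase of the synapse, was at 544, 722 and 568 CPM, against 183, 123 and 184 CPM (log2 fold change 1.87 ± 0.26, edgeR adjusted p = 0.0007). *fend*, a membrane protein of motor axon guidance, was at 1216, 1432 and 1579 CPM, against 450, 605 and 919 CPM (1.11 ± 0.25, edgeR adjusted p = 0.0323), and lost its call in 4 of 6 fits without 1 library, up to adjusted p = 0.303. In the other direction, *dpr6*, whose surface protein binds DIP partners on other neurons, was at 40.8, 47.0 and 61.9 CPM, against 228, 359 and 404 CPM (-2.72 ± 0.35, edgeR adjusted p = 0.000417). It was detected in 14 of 117 *Appl*- and 57 of 105 control members. It kept its call without any 1 library and lost it when the rule did not require *ey* or *dac* (-1.50, edgeR adjusted p = 0.125).

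Further falls were in genes with other roles. *hzg*, a phosphatase gene, was at 748, 446 and 671 CPM in *Appl*-, against 1677, 2912 and 3316 CPM in control (log2 fold change -2.09 ± 0.27, edgeR adjusted p = 0.000417). *gce*, a receptor of juvenile hormone, was at 238, 270 and 186 CPM, against 672, 707 and 744 CPM (-1.60 ± 0.24, edgeR adjusted p = 0.000994). The RNA *asRNA:CR44429*, annotated on the opposite strand within *gce*, fell too, with 1 UMI in *Appl*- and 65 in control, a ratio of 69.7 (95% counting interval 12.1 to 2794). Whether counting used strand is not given in the sources used here, so reads of *gce* and this RNA may not be told apart. *GstD1*, a glutathione transferase, was at 20.4, 52.8 and 51.6 CPM, against 183, 133 and 193 CPM (-2.05 ± 0.42, edgeR adjusted p = 0.0162). *Cda5*, a chitin deacetylase-like gene, was at 20.4, 41.1 and 20.6 CPM, against 100, 185 and 101 CPM (-2.10 ± 0.49, edgeR adjusted p = 0.0468). The calls of *GstD1* and *Cda5* were lost without 1 library in 5 and 6 of 6 fits, up to adjusted p = 0.0995 and 0.245. *Rh7*, a rhodopsin of the brain, was at 47.6, 5.87 and 31.0 CPM, against 255, 123 and 184 CPM (-2.82 ± 0.52, edgeR adjusted p = 0.00647), and 34 of its 78 control UMIs lay in the deepest cell. It lost its call without *Appl*- replicate 2 or 3, up to adjusted p = 0.0862.

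The remaining called genes have no role stated here. *CG30428* had 116, 106 and 155 CPM in *Appl*- and no UMI in control, so it was at least 15.5-fold higher (edgeR adjusted p = 0.000841). *CG31997* was at 313, 493 and 330 CPM, against 55.5, 103 and 101 CPM (log2 fold change 2.19 ± 0.33). *lncRNA:CR44922* was at 129, 182 and 82.6 CPM, against 16.7, 0 and 9.19 CPM (3.60 ± 0.63). These 3 kept their calls without any 1 library that left them tested. *CG14082* was at 109, 229 and 103 CPM, against 16.7, 41.0 and 18.4 CPM (2.62 ± 0.53). *CG42674* was at 272, 323 and 320 CPM, against 83.3, 103 and 119 CPM (1.59 ± 0.29). *CG42540* was at 1019, 1145 and 939 CPM, against 511, 431 and 450 CPM (1.14 ± 0.22). *CG31324* fell, with 136, 76.3 and 20.6 CPM in *Appl*-, against 494, 369 and 294 CPM in control (-2.25 ± 0.39). All 4 lost their calls without *Appl*- replicate 2, at adjusted p up to 0.41 for *CG14082*, 0.0846 for *CG42674*, 0.115 for *CG42540* and 0.0862 for *CG31324* over the fits without 1 library. *CG42540* also lost it without control replicate 2, and *CG14082* without control replicate 3.

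**Figure D2:**
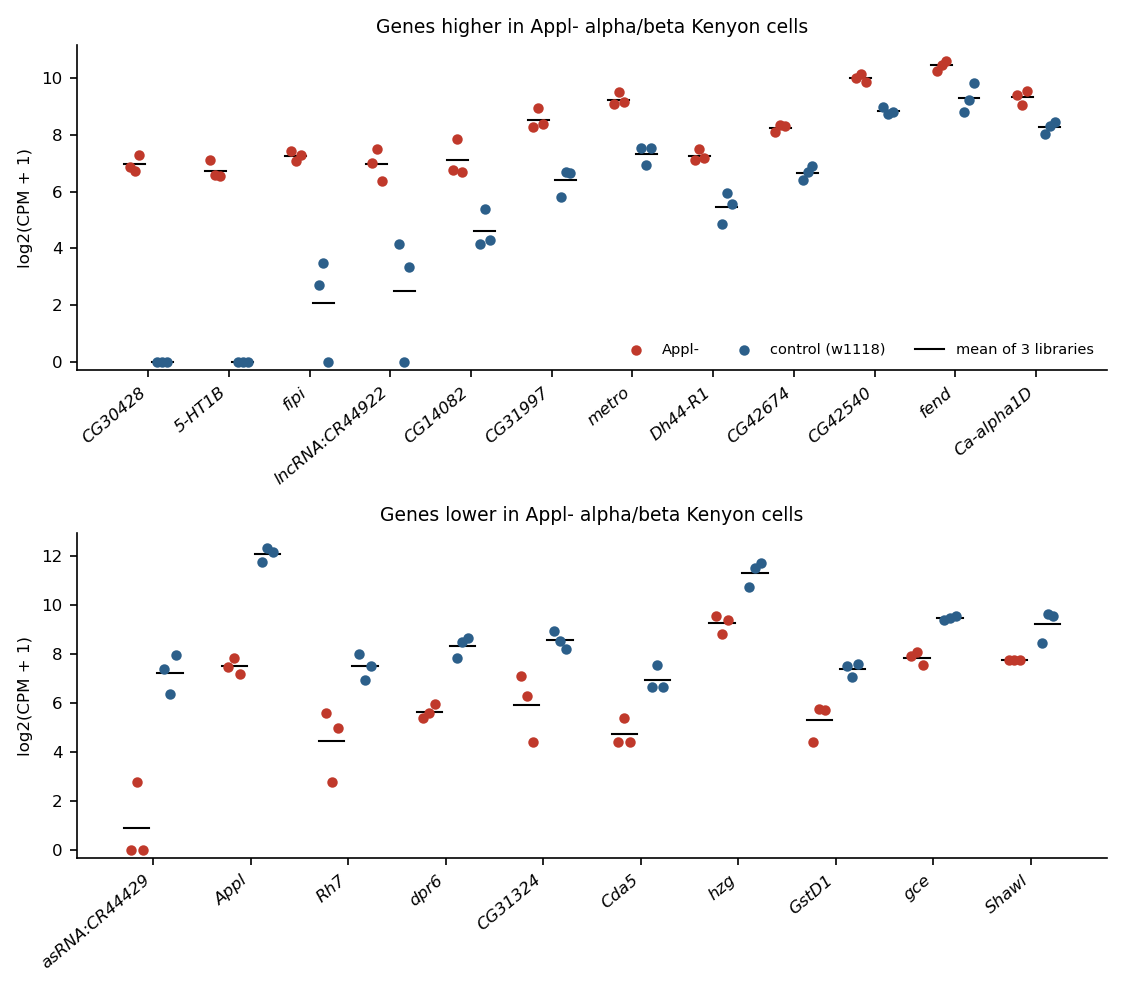
Level of the 22 called genes in alpha/beta Kenyon cells as log2(CPM + 1), with 1 point per library (*Appl*- left, control right, 3 each) and a line at the mean of the 3. *5-HT1B* and *CG30428* had no UMI in any control library, and *Appl* lay at 145 to 229 CPM in *Appl*- libraries and at 3454 to 5045 CPM in control libraries.

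By chromosome, the called genes lay on 2L (4), 2R (4), 3L (6), 3R (3), the fourth (1) and X (4). Of the genes tested, 292, 366, 370, 420, 59 and 359 lay on these in the same order. On X, *fend* was 8543 kb and *gce* 14719 kb from *Appl*. In the annotation, 12 of the 22 overlap a gene on the opposite strand and 5 a gene on the same strand, so their counts could hold reads of a neighbour. *Shawl*, *5-HT1B*, *fipi*, *metro*, *CG30428*, *dpr6* and *Ca-alpha1D* are among those with an opposite-strand neighbour.

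Lists of genes tied to Kenyon cell function were set beside all 1871 genes tested, of which 12 were called higher and 10 lower. Of the 18 tested genes of cyclic AMP signalling, none passed in edgeR, in DESeq2 or with the replicate block, 1 had an unadjusted p under 0.05, and the median log2 fold change was 0.01, beside -0.01 over all genes tested. *rut* was at 1604, 1867 and 2116 CPM in *Appl*-, against 1127, 2143 and 2453 CPM in control (log2 fold change -0.03 ± 0.25). *dnc* gave 0.07 ± 0.21 and *Pka-C1* 0.24 ± 0.24. The genotypes overlapped in all 3 genes. Among 11 receptors of dopamine, octopamine and serotonin, *5-HT1B* was higher, 3 had an unadjusted p under 0.05, and the median was -0.16. The dopamine receptor genes *Dop1R1* and *Dop1R2* gave -0.24 ± 0.28 and 0.22 ± 0.26. Another serotonin receptor gene, *5-HT1A*, was at 571, 552 and 485 CPM, against 633, 1159 and 1111 CPM, and was called lower in the paired fit only (-0.80 ± 0.20, edgeR adjusted p = 0.0081).

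Channel, transmitter and release genes had medians near 0. Of 24 voltage-gated channel genes, *Ca-alpha1D* was higher and *Shawl* lower, with a median of 0.02. In this list 4 genes had an unadjusted p under 0.05, beside 152 of all 1871 genes tested. None of the 14 receptors of acetylcholine, GABA and glutamate and none of the 27 genes of synaptic vesicle release passed in edgeR, in DESeq2 or with the replicate block. Their medians were 0.00 and 0.02, with 0 and 2 genes at an unadjusted p under 0.05. Of 5 neuropeptide and receptor genes tested, *Dh44-R1* was higher, 2 had an unadjusted p under 0.05, and *sNPF* gave 0.32 ± 0.31. Among 32 adhesion and recognition genes, *fipi* was higher and *dpr6* lower, with a median of -0.01, while *Fas2* gave -0.09 ± 0.22. Of these 32, 7 had an unadjusted p under 0.05. With the replicate block *beat-Ic*, another Beat family gene, was also lower (-2.02 ± 0.54, edgeR adjusted p = 0.0165). None of the 8 TGF-beta and BMP genes passed in edgeR, in DESeq2 or with the block or had an unadjusted p under 0.05, at a median of 0.15. This median was -0.14 without control replicate 1. Of 13 *Appl* partners and processing enzymes, *Appl* passed, at a median of -0.09, and 1 had an unadjusted p under 0.05.

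**Figure D3:**
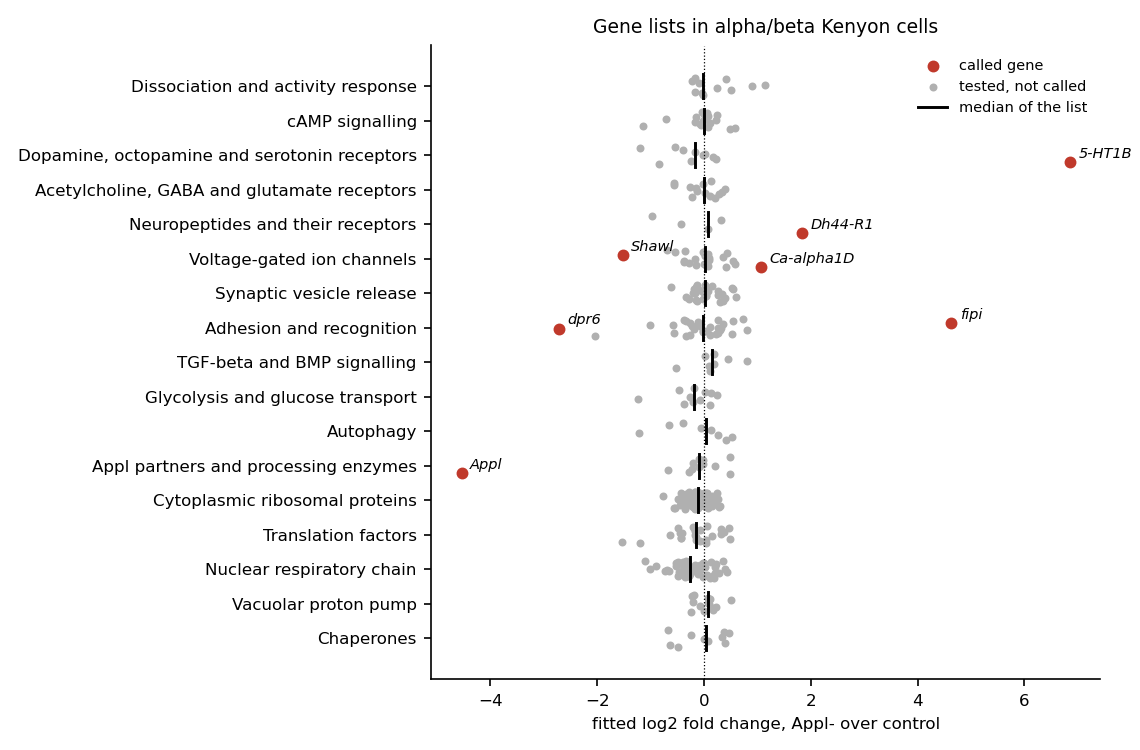
Fitted log2 fold change (*Appl*- over control) of the tested genes of each function list with at least 5 tested genes in alpha/beta Kenyon cells, with 1 point per gene, red for called genes and a bar at the list's median. *Appl*, *dpr6*, *Shawl*, *Ca-alpha1D*, *Dh44-R1*, *fipi* and *5-HT1B* passed the test, and the medians of these lists lay between -0.25 and 0.15.

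The 2 largest housekeeping lists had medians below 0 and no called gene. Over all 1871 genes tested, 976 lay below 0. Of 80 tested genes of cytoplasmic ribosomal proteins, 59 lay below 0 (median -0.12, 2 at an unadjusted p under 0.05), and of 56 nuclear genes of the respiratory chain, 41 lay below 0 (median -0.25, 3 at an unadjusted p under 0.05). Without control replicate 1 these medians were 0.09 and 0.05, so the direction rested on that library. Translation factors had a median of -0.15 (25 genes, 2 at an unadjusted p under 0.05) and glycolysis and glucose transport -0.19 (11 genes, 1 at an unadjusted p under 0.05). The glycolysis median was 0.18 without control replicate 1 and -0.55 without *Appl*- replicate 1. Of the lists in the plot of gene lists, those of dopamine, octopamine and serotonin receptors, *Appl* partners and translation factors kept the sign of their median in every fit without 1 library, and the others changed it in at least 1. Autophagy (8 genes, median 0.04), the vacuolar proton pump (14 genes, 0.07), chaperones (10 genes, 0.04) and the dissociation and activity response (11 genes, -0.01) had no called gene, with 1, 0, 1 and 3 genes at an unadjusted p under 0.05. DESeq2 called no gene in these 8 lists. With the replicate block, the heat shock genes *Hsp68* (1.22 ± 0.25) and *Hsp27* (0.89 ± 0.21) of the last list were higher. The respiratory gene *UQCR-C1* (-1.07 ± 0.31), the ribosomal gene *RpS21* (-0.74 ± 0.21), the elongation factor genes *eEF1alpha1* and *eEF1beta*, and the glucose transporter gene *Glut1* (-1.30 ± 0.23) were lower. Markers of other cells were lower in that fit as well, namely *Gad1*, *Gs2*, *ninaE* and *hth*. Of these, *hth* was also at 296 to 438 CPM in gamma-type cells.

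The same contrast was then fitted in gamma-type cells and in all other kept cells, gamma-type cells included. The cell sets come from the same libraries, so their values are set side by side. Of the 22 genes, *Appl* fell by 4.36 on the log2 scale in gamma-type cells and 3.20 in other cells, and *hzg* fell by 2.51 and 1.51. *metro* gave 2.03 and 1.10, and *gce* -1.94 and -1.07. *dpr6* gave -0.55 in gamma-type cells (edgeR adjusted p = 0.413) and -0.06 in other cells (edgeR adjusted p = 0.93), beside -2.72 in alpha/beta cells. *CG14082* gave 4.70 in gamma-type and 0.14 in other cells, beside 2.62. *CG31324* gave -1.97 and -0.24, beside -2.25, and *CG42540* gave 1.06 and 0.03, beside 1.14. Both passed in gamma-type cells (edgeR adjusted p = 3.08e-05 and 6.15e-05).

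**Figure D4:**
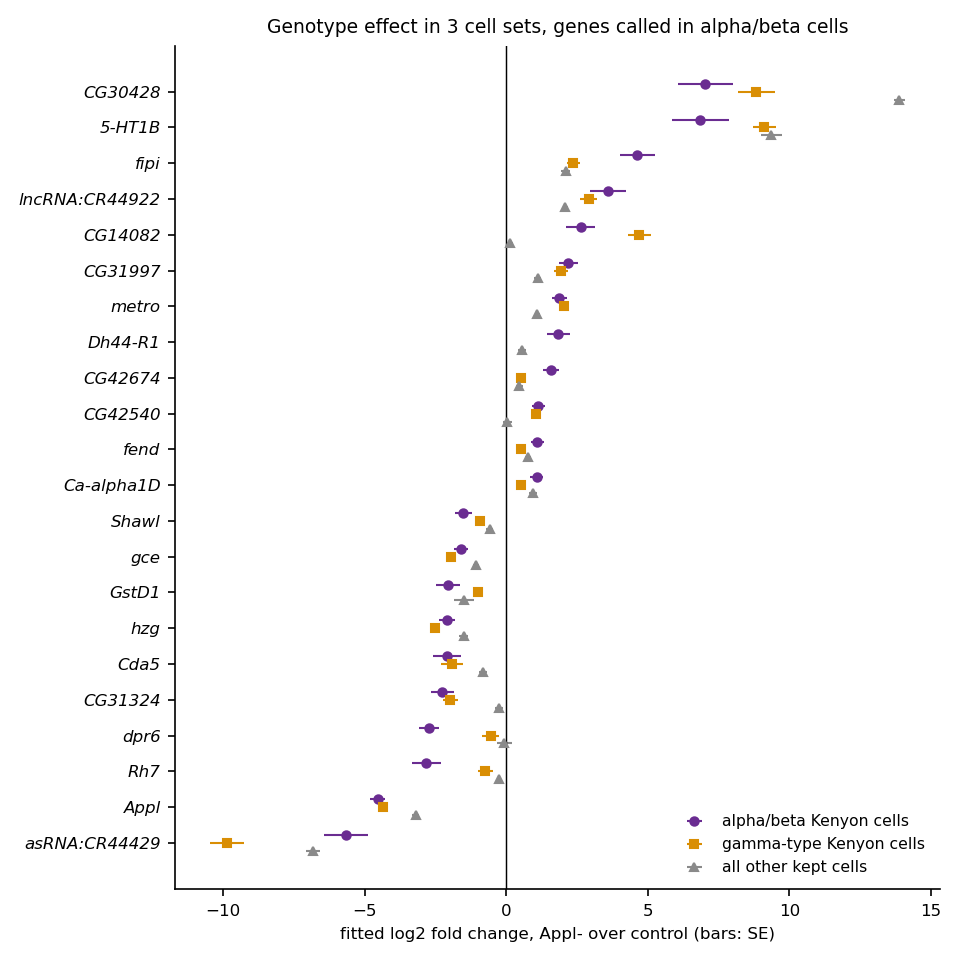
Fitted log2 fold change (*Appl*- over control, bars SE) of the 22 called genes in alpha/beta Kenyon cells, gamma-type Kenyon cells and all other kept cells (gamma-type cells included). *dpr6* lay at -2.72 in alpha/beta cells, -0.55 in gamma-type cells and -0.06 in other cells, and fitted values of genes with no or almost no UMI in 1 genotype are not bounds.

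The difference between cell sets was tested itself, in a model with a term for each library. Against all other kept cells, 16 of 7766 genes had a higher genotype effect in alpha/beta cells (0.206%) and 33 a lower one (0.425%), and 423 had an unadjusted p under 0.05. Of the 22 genes, 7 were among them. The difference was -2.58 ± 0.37 for *dpr6* (edgeR adjusted p = 8.63e-09), -1.92 ± 0.32 for *CG31324*, -1.23 ± 0.22 for *Appl*, -2.49 ± 0.46 for *Rh7*, 2.58 ± 0.53 for *CG14082*, 1.248 ± 0.329 for *CG42674* and 1.20 ± 0.22 for *CG42540* (edgeR adjusted p up to 0.0301). With no requirement of *ey* or *dac*, all 7 lost this call (edgeR adjusted p = 0.119 or more, 0.263 for *dpr6* and 0.367 for *Appl*). Without the 3 deepest cells, *CG42674* and *Rh7* lost the difference (edgeR adjusted p = 0.0611 and 0.0661) and the other 5 kept it. *CG42674* also lost it in 4 of 6 fits without 1 library, and *CG14082* without *Appl*- replicate 2 (edgeR adjusted p = 0.116). For *Appl*, the *Appl*- levels were close in both sets, at 177, 229 and 145 CPM in alpha/beta and 203, 249 and 234 CPM in other kept cells. The control levels differed, at 3454, 5045 and 4538 CPM, against 2013, 2333 and 2095 CPM. Its difference thus goes with a higher control level in alpha/beta cells.

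Many of the other genes in this comparison rested on few cells. Of the 49 genes, 19 had most (over 50%) of their alpha/beta UMIs in 1 cell, 28 had most in 1 library, and 4 had under 20 UMIs. Among the genes called between genotypes, by contrast, 0 of 22 had most in 1 cell. Without the 3 deepest cells, 14 genes had a higher and 18 a lower effect than in other cells, and without control replicate 1 these were 19 and 24. Spread over many cells, with at most 10% of their UMIs in 1 cell, were 8 genes outside the 22, which were chosen after their values were seen. *Eip93F*, a transcription factor of the ecdysone pathway, was at 3948, 4115 and 4469 CPM in *Appl*- alpha/beta cells, against 2082, 3025 and 3803 CPM in control, a difference from other cells of 0.75 ± 0.19 (edgeR adjusted p = 0.0123). *NetB*, a netrin, differed by 1.34 ± 0.32, *bru2*, an RNA-binding protein, by 1.37 ± 0.36, *Ca-alpha1T* by 0.82 ± 0.21, and *lncRNA:Hsromega*, a heat-inducible RNA, by 0.56 ± 0.15. Differences below 0 were those of *sty*, an inhibitor of receptor tyrosine kinase signalling (-1.75 ± 0.34), *hth*, a homeodomain factor (-1.02 ± 0.28), and *CG41378* (-2.12 ± 0.54). The gene *hth* is also in the optic lobe marker list above. In the other kept cells themselves, *sty* and *CG41378* rose, by 0.87 and 0.97 (edgeR adjusted p = 0.0473 and 0.0013). *NetB* fell there (-0.62, edgeR adjusted p = 0.0486), and the rest of the 8 were not called there. *sty* alone of these 8 kept its call without any 1 library, and *Eip93F*, *bru2* and *lncRNA:Hsromega* lost theirs without the 3 deepest cells (edgeR adjusted p = 0.0523, 0.0642 and 0.308). With the replicate block *lncRNA:Hsromega* was not called either (edgeR adjusted p = 0.135).

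Against gamma-type cells, 8 of 2978 genes differed, 2 higher (0.0672%) and 6 lower (0.201%), and 210 had an unadjusted p under 0.05. Without control replicate 1, 4 were higher and 9 lower. With a replicate block within each cell set, which leaves 2 residual degrees of freedom and was added after seeing the data, 33 were higher and 33 lower, the 8 included. None of the 22 genes was among the 8 (edgeR adjusted p = 0.089 for *dpr6*), but 4 were called in the fit with the block. These were *dpr6* (-2.17 ± 0.49, edgeR adjusted p = 0.0011), *Rh7* (-2.07 ± 0.53, edgeR adjusted p = 0.00894), *CG42674* (1.09 ± 0.31, edgeR adjusted p = 0.0265) and *fend* (0.63 ± 0.18, edgeR adjusted p = 0.0287). *Rgk2* was at 435, 405 and 681 CPM in *Appl*- alpha/beta cells, against 328, 533 and 671 CPM in control. In gamma-type cells it was at 88.2, 66.8 and 88.9 CPM in *Appl*-, against 11.04, 12.9 and 12.7 CPM in control. The genotypes thus overlapped in alpha/beta cells (log2 fold change -0.02) and were apart in gamma-type cells (2.65), a difference of -2.59 ± 0.33 (edgeR adjusted p = 0.000963), which held without any 1 library.

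For *sty*, alpha/beta cells had 109, 70.4 and 114 CPM in *Appl*-, against 183, 277 and 119 CPM, and gamma-type cells had 867, 735 and 630 CPM, against 430, 427 and 403 CPM. The difference was -1.76 ± 0.33 (edgeR adjusted p = 0.0262). The difference was also below 0 for *CG32066* (-1.52 ± 0.26), *CG42402* (-1.49 ± 0.29) and *igl* (-1.13 ± 0.19). *igl*, a calmodulin-binding protein gene, lies outside the rule for named genes and was chosen after its values were seen. These genes rose in gamma-type cells, by 0.82, 0.92 and 0.81 in the same order (edgeR adjusted p = 0.00138, 0.00016 and 0.000111). In alpha/beta cells they gave -0.82, -0.70 and -0.33, and none was called between genotypes. It was above 0 for the small heat shock protein gene *Hsp27* (1.37 ± 0.28, edgeR adjusted p = 0.0359). *Hsp27* gave 0.90 in alpha/beta cells and -0.40 in gamma-type cells. *CG11000* (-1.38 ± 0.27) had 31.9% of its UMIs in the deepest cell and was no longer called without the 3 deepest cells (-0.63, edgeR adjusted p = 0.773). *Pdh* (6.21 ± 0.87) had 89.5% of its UMIs in 1 cell of *Appl*- replicate 1 and lost its call without that library (edgeR adjusted p = 0.444). Without 1 library, calls were lost for *Hsp27* in 5 of 6 fits, *CG42402* in 4, *sty* and *CG11000* in 3, and *igl* and *CG32066* in 1 (without *Appl*- replicate 1).

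**Figure D5:**
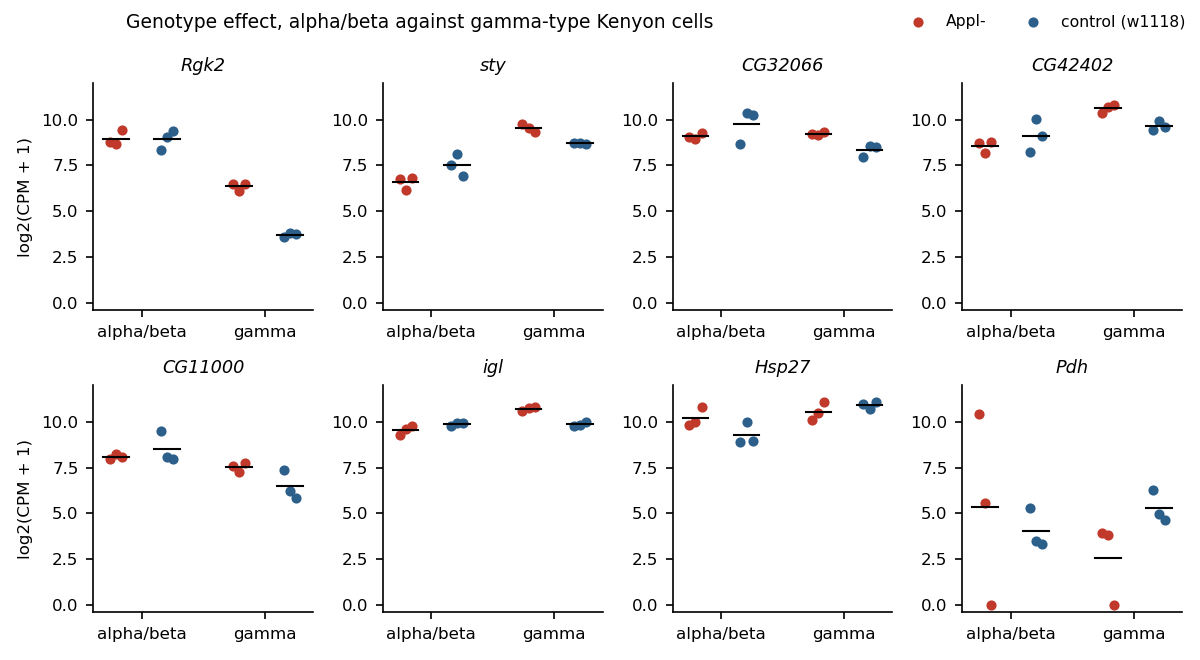
Level as log2(CPM + 1) of the 8 genes whose genotype effect differed between alpha/beta and gamma-type Kenyon cells, with 1 point per library (*Appl*- left, control right, 3 each) and a line at the mean. *Rgk2* lay at 66.8 to 88.9 CPM in *Appl*- gamma-type cells and 11.04 to 12.9 CPM in control ones, while the genotypes overlapped in alpha/beta cells.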

How the data were processed

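Single-cell 3' libraries (10x Chromium) of 6 brain samples were analysed. The authors deposited raw UMI counts per barcode and feature, made with Cell Ranger (6.0 in the submitters' processing notes), whole numbers without normalization. The genome build and the use of strand in counting are not given in the sources used here. Of 22064 features, the 16493 genes were used and transposable elements were not. Of the gene IDs, 16447 (99.7%) matched the Ensembl release 115 annotation, used for chromosome arms and neighbours.

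Genotype and replicate come from the sample titles. The cells and the gene lists were chosen with earlier results of these data known. UMI counts were summed per library over alpha/beta, gamma-type and all other kept cells with Python 3.11.15 and scanpy 1.11.5, and CPM are scaled to 1000000 gene UMIs of a sum. Genotypes were compared on these sums by edgeR 4.0.16, using its quasi-likelihood fit (TMM factors 0.963 to 1.02, default filter on low counts, R 4.3.3), with a common biological coefficient of variation of 0.212 in alpha/beta cells. Differences between cell sets were tested in 1 model with library terms, and single values by exact permutation (scipy 1.17.1). P-values measure the spread between these libraries.

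The genes named are *Appl*, the selection genes, the 10 largest rises and falls among called genes that do not overlap, called members of the function lists, the 5 largest interactions in each direction, the listed markers, the 10 genes furthest apart from gamma-type cells in each direction, and the 10 most variable among cells. *fend*, *igl*, the 8 genes spread over many cells, the genes called with the block only and the uncalled list members given with values were chosen after their values were seen.

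Deviations of same-numbered *Appl*- and control libraries from their genotype means correlated at 0.387, 0.168 and 0.170 in alpha/beta cells and 0.287, 0.246 and 0.370 in other cells. The labels do not say what a number shares. No pair of libraries of a genotype was a duplicate (chi-square per degree of freedom 1.78 to 4.80). On simulated data with 200 changed genes, the genotype test recovered 50.6% of 2-fold changes (1825 genes) and 98.9% of 4-fold changes (1879 genes), with 3.19% and 1.68% false calls. The interaction tests recovered 85.5% (gamma-type, 3025 genes) and 82% (other cells, 7807 genes) of 4-fold differences, with 3.93% and 1.80% false calls. Whether the simulated counts spread among cells as the real counts do was not tested. Of the 49 genes called against other kept cells, 19 had most of their UMIs in a single cell. The simulated rates of recovery and false calls thus cannot be taken as rates for the calls made here.

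Alternatives were DESeq2 1.42.0, total counts only, no filter, the replicate block, other cell limits and marker rules, thinning to 1000 UMIs, removal of the top 5% of Scrublet scores, and leaving out each library. Added after seeing the data were removal of cells with 2 UMIs of other transmitter markers, removal of cells above 10000 UMIs, a 1000 UMI minimum without thinning, a replicate block within each cell set in the interaction models, and same-numbered libraries as pairs for single values.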

Additional observations from a re-analysis of the deposited data

Results flagged for a closer look

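The difference between *Appl*- and control in alpha/beta Kenyon cells was tested against the same difference in other cells of the same libraries (interaction term, edgeR), and the genes below differed. Values are differences of log2 fold changes, alpha/beta minus the other set.

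Against gamma-type Kenyon cells these were *Pdh* (6.21), *Hsp27* (1.37), *igl* (-1.13), *CG11000* (-1.38), *CG42402* (-1.49), *CG32066* (-1.52), *sty* (-1.76) and *Rgk2* (-2.59). Against all other kept cells, the genes that also changed between genotypes were *Appl* (-1.23), *dpr6* (-2.58), *CG31324* (-1.92), *Rh7* (-2.49), *CG14082* (2.58), *CG42674* (1.248) and *CG42540* (1.2). *dpr6* and *Appl* kept this call without any 1 library and without the 3 deepest cells, and both lost it with no requirement of *ey* or *dac* (edgeR adjusted p = 0.263 and 0.367). *Appl* also lost it at most 5% mitochondrial (edgeR adjusted p = 0.411). The *Appl*- levels of *Appl* were close in both sets, while its control level was higher in alpha/beta cells. Within gamma-type cells, *Appl* (-4.36), *CG31324* (-1.97), *CG14082* (4.70) and *CG42540* (1.06) changed between genotypes as well (edgeR adjusted p up to 6.15e-05). There *dpr6* (-0.55), *Rh7* (-0.74) and *CG42674* (0.52) were not called.

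The largest differences from other kept cells rested on few UMIs or cells and include genes of other cell types. Higher were *PPO1*, a prophenoloxidase of blood cells (14.38, from 2 UMIs), *CG40485* (12.05, from 12 UMIs in 1 cell), *Pdh* (4.85, 196 of 219 UMIs in 1 cell), *CG6870* (4.64, 22 of 25 UMIs in 1 cell) and *Tsp42Ea*, a tetraspanin gene (4.46, 32 of 36 UMIs in 1 cell). Lower were *twit* (-11.5, 54 UMIs in 1 cell), *cv-2* (-10.91, 12 UMIs in 5 cells), the neuropeptide genes *Dh31* (-5.33, 773 of 786 UMIs in 1 cell) and *AstC* (-4.85, 24 of 26 UMIs in 1 cell), and the peptide receptor gene *AstA-R1* (-4.75, 36 of 43 UMIs in 1 cell). For *PPO1*, *CG40485*, *twit* and *cv-2* a genotype had no UMI in alpha/beta cells, so the fitted differences are no bounds. With a replicate block within cell sets *PPO1*, *twit* and *cv-2* were not called (edgeR adjusted p = 0.371, 0.251 and 0.0609).

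Spread over many cells were *NetB* (1.34), *Eip93F* (0.75), *Ca-alpha1T* (0.82), *bru2* (1.37), *lncRNA:Hsromega* (0.56), *hth* (-1.02), *sty* (-1.75) and *CG41378* (-2.12).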

How the results depend on the processing

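Genes called between genotypes in alpha/beta cells (12 higher, 10 lower) became 29 and 85 without a filter on low counts, 33 and 39 with the replicate block, 2 and 5 at most 5% mitochondrial, 3 and 5 with at least 3 markers, 2 and 5 without *crb* in the rule, 27 and 29 with 1 excluding marker allowed, and 0 and 2 after thinning (403 genes tested, 29 at an unadjusted p under 0.05 in edgeR). Without 1 library they ranged over 5 to 14 higher and 5 to 17 lower. Differences from gamma-type cells (2 higher, 6 lower) gave 1 higher with total counts only, 16 and 29 without a filter, 1 higher at least 500 genes, 1 and 3 at most 5% and 6 and 11 at most 20% mitochondrial, 5 higher with at least 3 markers, 0 and 2 without *crb*, 8 higher with 1 excluding marker, 4 and 12 without the top 5% Scrublet scores, 7 and 12 without cells of other transmitter markers, and 4 higher without cells over 10000 UMIs. Without 1 library the range was 0 to 8 higher and 4 to 15 lower. Differences from other kept cells (16 higher, 33 lower) gave 2 and 10 at most 5% mitochondrial, 57 lower at most 20%, 2 and 13 with at least 3 markers, 5 and 19 without *crb*, 1 and 1 with no requirement of *ey* or *dac*, 6 and 11 with 1 excluding marker, and 18 lower without cells over 10000 UMIs. Without 1 library it was 8 to 19 higher and 15 to 48 lower.

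The share difference (0.0509 percentage points) was 0.399 with 1 excluding marker and -0.0202 to 0.150 without 1 library. The median depth difference (-43.3 UMIs) was 361 with at least 3 markers, 315 without *crb*, and -292 to 121 without 1 library. Relative to other kept cells, *CG6870* turned to -7.12 without *Appl*- replicate 1, -5.20 at most 5% mitochondrial, -7.59 with at least 3 markers and -7.32 without *crb* (without 1 library -7.12 to 6.25), and *Tsp42Ea* (without 1 library -7.63 to 13.04) to -7.63, -5.13, -6.89 and -6.59. *twit* turned to 0.46 with at least 3 markers and 0.58 without cells over 10000 UMIs, and *sty* to 0.0266 with no requirement of *ey* or *dac*. The last setting also ended the genotype call of 12 of the 22 genes, *dpr6* and *gce* included. The cause was not tested.

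No called gene changed direction between genotypes. Over the 22 genes and their alternatives, 349 results kept their side of the threshold and 79 did not. With a replicate block within cell sets, differences from gamma-type cells became 33 higher and 33 lower, and those from other kept cells 25 higher and 34 lower (44 of the 49 genes in both). The sums hold 96883 to 180073 UMIs each, and genes below the filter on low counts were not tested.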
